A study of Rattus norvegicus with 12 samples.

Results

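Corn oil was compared with olive oil at 5% fat in the livers of overfed rats, on the 3 arrays labelled as fed 5% corn oil and the 3 labelled as fed 5% olive oil, which are 6 of the 12 arrays of the series. All 8740 probe sets that are not array controls were used. They gave 1 value for each of 4736 named genes, of which 1565 had more than 1 probe set. Both groups were male Sprague-Dawley rats with a starting weight of 150 g, fitted with a stomach cannula and given 17% more calories than needed for 21 days by total enteral nutrition, the infusion of liquid food straight into the stomach. The diets were isocaloric and, at this fat level, differed in the oil alone as far as the labels say. The remaining 6 arrays held the same oils at 70% fat, with another ratio of fat to carbohydrate. Each array held a pool of liver RNA, of which 8 ug was labelled with biotin, with pools 1 to 3 of each diet. How many animals went into a pool was not stated in the labels, so p-values cover the spread between pools only, and the 3 arrays per diet limit the precision.

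Corn oil is rich in the polyunsaturated fatty acid linoleic acid, and olive oil in the monounsaturated oleic acid. The liver makes fatty acids from carbohydrate by de novo lipogenesis: citrate leaves the mitochondrion, is turned into acetyl-CoA and malonyl-CoA, and fatty acid synthase builds palmitate, which is activated and esterified to glycerol. The transcription factor SREBP-1c drives many of these genes after feeding, and polyunsaturated fatty acids are known from other work to lower its activity in liver, while fatty acids of several kinds activate PPAR alpha, which drives genes of fatty acid oxidation.

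All values are on the deposited log2 scale, where every probe set was centred on its own median across the series. A value is therefore a difference from that median, no absolute level is known, and levels of different genes cannot be set against each other. A difference is the mean of the corn oil arrays minus that of the olive oil arrays, its error is the standard error (SE) of the limma fit with 3 arrays per diet, and adjusted p-values are limma's with Benjamini-Hochberg adjustment over all 4736 genes. A gene passed the test at an adjusted p under 0.05.

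The arrays of both oils differed in the state of their control transcripts. The platform carries probe sets at the 5' end, the middle and the 3' end of actin and of GAPDH, and the 3'/5' index used here is the mean over both transcripts of the 3' value minus the 5' value. It was 1.502, 1.36 and 0.967 in corn oil pools 1 to 3 and -0.315, -0.348 and -0.428 in olive oil pools 1 to 3. The groups did not overlap, with a difference of 1.64 and an exact permutation p of 0.1 (two-sided), the smallest that 3 arrays against 3 allow. The 5' end carried most of it. The actin 5' probe set read -1.92, -1.63 and -1.22 with corn oil against 0.31, 0.22 and 0.076 with olive oil. The actin middle probe set was low with corn oil as well, at -1.89, -1.24 and -0.89 against 0.21, 0.079 and 0.041. At the 3' end actin read -0.61, -0.16 and -0.010 against 0.096, -0.051 and -0.16, and GAPDH -0.11, 0.038 and 0.069 against 0.32, 0.11 and 0.034. Hexokinase, another control transcript, was not part of the index and showed no 3' excess with corn oil. Its 3' minus 5' value was -0.068, -0.0785 and -0.128 with corn oil against 0.0001, 0.058 and 0.040 with olive oil.

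**Figure D1:**
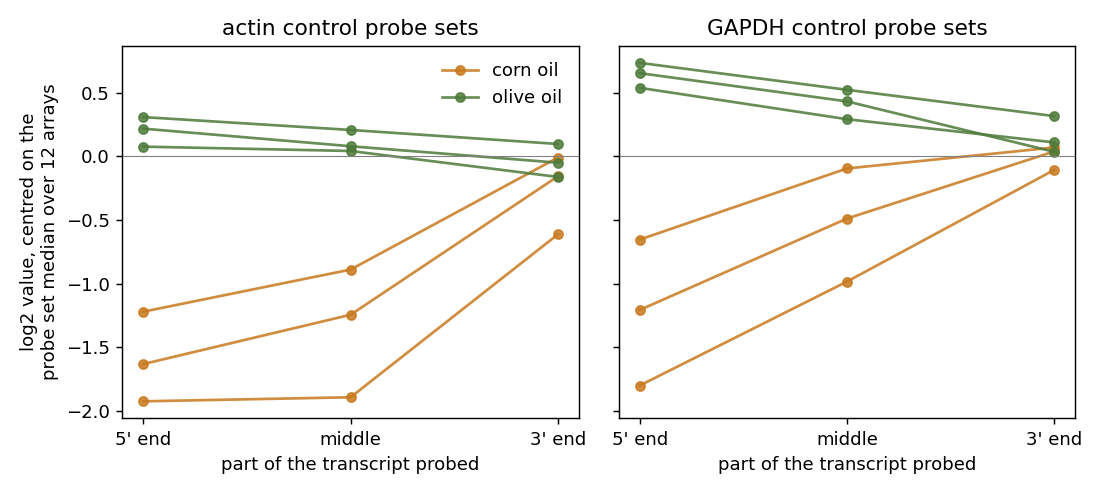
Control probe sets at the 5' end, middle and 3' end of the actin and GAPDH transcripts in the 6 arrays at 5% fat, as centred log2 values with 1 line per array. The 3 corn oil arrays climb from the 5' to the 3' end, from -1.92 to -0.61 for actin in pool 1, while the 3 olive oil arrays stay near 0 or slope the other way.

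With the index as a covariate, fitted over all 12 arrays, no gene passed the test (limma, lowest adjusted p = 0.7, 277 genes at an unadjusted p under 0.05, which is 5.85%, against 30.1% without the index). Among probe sets 521 were under that unadjusted p with the index (5.96%). The median SE of the difference rose from 0.105 to 0.27 in that fit. Since the fit holds 1 mean per diet, the slope of the index comes only from its spread within diets. That spread was widest in the corn oil arrays at 70% fat, where pool 2 stood apart (0.948, 0.162 and 1.03 in pools 1 to 3). No array was left out under this setting, so the weight of single arrays on values with the index was not tested. In the 6 arrays compared the index and the oil cannot be told apart. Values with the index are therefore given beside results, and weight was placed on genes whose several probe sets moved alike.

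Of the 4736 genes, 801 passed the test (16.9%), with 399 higher with corn oil (8.42%) and 402 lower (8.49%). The median difference over all genes was 0.050, and differences ran from -3.61 to 2.01. With each array centred on its median the split was 325 higher and 449 lower, and after a second quantile normalization 283 higher and 380 lower. Among the probe sets, 1704 of 8740 passed (19.5%), 886 higher (10.1%) and 818 lower (9.36%). Leaving out corn oil pool 1, corn oil pool 2 or olive oil pool 2 lowered the gene count to 512, 519 and 465. At least 1.5-fold differences past the test were found for 342 genes (7.22%), 132 higher (2.79%) and 210 lower (4.43%). Arrays of both oils did not overlap in 39.9% of all genes, 24.3% higher and 15.6% lower with corn oil.

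Part of the measured genes of fatty acid synthesis fell with corn oil. Of 15 measured members of the de novo lipogenesis list, 7 passed the test as lower and 0 as higher, against 8.49% of all genes lower. The list's median difference was -0.53, against 0.050 over all genes, and it was -0.54 with the index as a covariate, when 0 members passed (limma), and -0.49 at 70% fat. With rc_ or UTR probe sets alone, a choice made after seeing the data that left 7 members, the median was 0.055 and 0 passed as lower (limma). The 7 were Fasn, Acaca, Acacb, Srebf1, Slc25a1, Gpam and Acsl5. Of these, Acaca, Acacb, Srebf1 and Slc25a1 rest on 1 probe set each. Among the 8 members of the list with more than 1 probe set, 2 had every probe set without overlap in 1 direction. The count of lower members was 4 without corn oil pool 2 and 4 without olive oil pool 1. It was 5 when each gene was given by its probe set with the smallest difference.

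The start sites of these 7 genes were looked up because the genes moved together. RefSeq promoter sequences (GRCr8, 250 bases before to 50 after the start) were matched for 5 of them, and none was at hand for Fasn and Acaca. Only the first listed start site of a gene was taken, so any other start site was not searched. In the sequences of 4 genes, written 5' to 3' on the gene's strand, capitals mark the CCAAT box (CCAAT) or the GC box (GGGCGG) on either strand.

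Srebf1: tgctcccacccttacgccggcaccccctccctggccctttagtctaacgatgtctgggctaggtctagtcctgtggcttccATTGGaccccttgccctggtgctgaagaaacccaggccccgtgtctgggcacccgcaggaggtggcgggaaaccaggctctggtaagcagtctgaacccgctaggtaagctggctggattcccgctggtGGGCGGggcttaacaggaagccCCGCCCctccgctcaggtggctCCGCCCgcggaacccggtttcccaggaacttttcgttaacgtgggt
Slc25a1: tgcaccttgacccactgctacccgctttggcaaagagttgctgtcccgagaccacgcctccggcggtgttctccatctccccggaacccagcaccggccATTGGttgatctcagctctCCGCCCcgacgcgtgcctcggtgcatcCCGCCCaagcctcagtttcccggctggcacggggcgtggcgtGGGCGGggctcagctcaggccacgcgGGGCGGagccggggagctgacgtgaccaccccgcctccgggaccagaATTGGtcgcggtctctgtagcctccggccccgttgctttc
Gpam: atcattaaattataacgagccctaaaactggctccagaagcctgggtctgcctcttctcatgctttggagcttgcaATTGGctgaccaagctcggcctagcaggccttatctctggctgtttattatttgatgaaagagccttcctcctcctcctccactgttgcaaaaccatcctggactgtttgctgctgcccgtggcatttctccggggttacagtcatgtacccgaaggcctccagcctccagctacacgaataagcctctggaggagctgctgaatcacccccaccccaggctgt
Acacb: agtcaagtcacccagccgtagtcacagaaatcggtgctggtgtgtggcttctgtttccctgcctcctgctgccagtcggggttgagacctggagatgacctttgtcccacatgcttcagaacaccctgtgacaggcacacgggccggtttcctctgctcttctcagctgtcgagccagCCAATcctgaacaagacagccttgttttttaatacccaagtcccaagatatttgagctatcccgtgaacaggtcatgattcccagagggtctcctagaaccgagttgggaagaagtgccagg

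They lie at chr10:45529115-45529414 on the minus strand (Srebf1), chr11:96559804-96560103 on the plus strand (Slc25a1), chr1:264175862-264176161 on the minus strand (Gpam) and chr12:48138165-48138464 on the minus strand (Acacb). Srebf1 held 1 CCAAT box and 3 GC boxes, Slc25a1 2 and 4, and Gpam and Acacb 1 CCAAT box each with no GC box. A sterol regulatory element (TCACNCCAC) and an E-box (CACGTG), with all 4 motifs searched on both strands and counted each on its own where they overlap, matched in none of the 5 promoters, the fifth being Acsl5, which held no match to any of the 4 motifs. Over all 33469 promoters of the table, 37.5% held a CCAAT box, 33.1% a GC box, 6.42% the E-box and 1.12% the sterol regulatory element. A match is a description of letters in this window and not evidence of binding.

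Acaca encodes acetyl-CoA carboxylase 1, which makes malonyl-CoA for synthesis. It read -0.12, -0.28 and -0.23 in corn oil pools 1 to 3 and 0.68, 0.68 and 0.66 in olive oil pools 1 to 3. The 6 values formed clearly separate groups, the difference was -0.88 ± 0.07 (SE), a 1.84-fold lower value, with an adjusted p of 0.000118, and the difference with the index was -1.05 ± 0.19. Acacb, the mitochondrial carboxylase whose malonyl-CoA restrains entry of fatty acids, fell by less: it read -0.0088, -0.078 and -0.057 against 0.54, 0.27 and 0.34, a difference of -0.43 ± 0.11 with an adjusted p of 0.0172 and -0.32 ± 0.30 with the index. Its call was lost without corn oil pool 2 (adjusted p = 0.0575) or olive oil pool 1 (0.0756).

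Fasn, fatty acid synthase, read 0.35, -0.15 and 0.73 with corn oil and 2.20, 2.25 and 1.92 with olive oil. The groups lay far apart, with a difference of -1.81 ± 0.24 (3.52-fold lower, adjusted p = 0.000547). Its 2 probe sets come from different source sequences and differed in size, at -3.13 ± 0.23 for the probe set marked as coding sequence and -0.50 ± 0.31 for the other, which alone did not pass (adjusted p = 0.3). With the index the gene's difference was -1.38 ± 0.66.

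Gpam, the mitochondrial glycerol-3-phosphate acyltransferase that starts triglyceride synthesis, had 5 probe sets, and every one of them was lower in all 3 corn oil arrays than in any olive oil array. They ran from -1.57 to -0.36. Their identifiers name 3 source sequences, while the platform annotation gives 1 accession for all, so they count here as 1 source. The gene's value was -0.17, -0.26 and -0.31 against 0.65, 0.54 and 0.38. The difference of -0.77 ± 0.10 (adjusted p = 0.000459) was -0.75 ± 0.27 with the index. Acsl5, an acyl-CoA synthetase that activates fatty acids, read -0.24, -0.22 and -0.083 against 0.99, 0.65 and 0.74. Both of its probe sets were lower without overlap, at -1.54 and -0.41, and the gene's -0.97 ± 0.14 (adjusted p = 0.000913) became -1.30 ± 0.38 with the index.

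Srebf1, which encodes SREBP-1, read -0.32, -0.60 and -0.24 with corn oil and 1.05, 0.75 and -0.12 with olive oil. Olive oil pool 3 lay close to the corn oil arrays. The difference of -0.94 ± 0.24 (adjusted p = 0.0195) was -0.18 ± 0.63 with the index. The call was lost when the 6 arrays were fitted alone (0.0526) and without corn oil pool 2 (adjusted p = 0.0751), olive oil pool 1 (0.0790) or olive oil pool 2 (0.0765). Slc25a1, the mitochondrial citrate carrier, read -0.84, -0.66 and -0.26 against 0.50, 0.066 and 0.17, a difference of -0.83 ± 0.25 with an adjusted p of 0.0354. That call was the least stable of the 7. It was lost without corn oil pool 1 (0.130), corn oil pool 2 (0.098), olive oil pool 1 (0.127), olive oil pool 2 (0.0594), olive oil pool 3 (0.0665) or olive oil pool 1 at 70% fat (0.0511) and with the pool number as a replicate block (0.0554), and the sign turned with the index, to 0.78 ± 0.45.

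Several well-known members of the list did not pass. Acly, ATP citrate lyase, read 0.34, 0.062 and 0.39 against 0.76, 0.74 and 0.50 without overlap. Its difference was -0.40 ± 0.14 with an adjusted p of 0.0691. That value averages probe sets of opposed sign, at -1.01, -0.42 and 0.23. Me1, malic enzyme, which supplies NADPH, had 5 probe sets that were all below 0 (-1.68 to -0.12), with a gene difference of -0.68 ± 0.26 and an adjusted p of 0.0998. Scd, the stearoyl-CoA desaturase that makes oleic acid, read 1.51, 1.18 and 1.34 against 1.69, 1.26 and 1.26. These groups overlapped, and the difference was -0.06 ± 0.34 (adjusted p = 0.925), from probe sets at -0.43 and 0.31. Pnpla3, a lipid droplet protein, overlapped as well and differed by -0.53 ± 0.42 (adjusted p = 0.429).

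**Figure D2:**
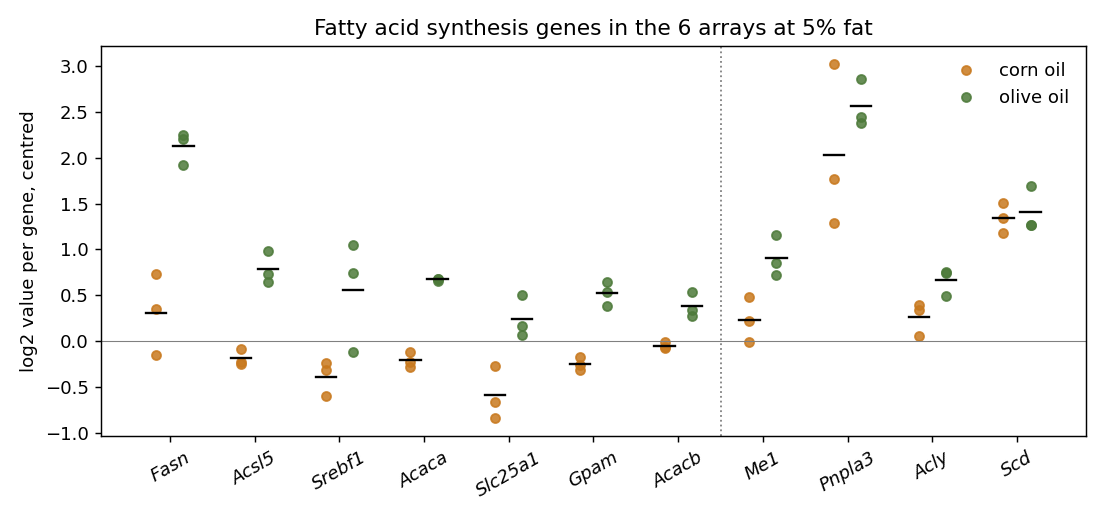
Centred log2 values of 11 fatty acid synthesis genes in the 6 arrays at 5% fat, with points for arrays and bars for the means of 3 arrays. The 7 genes left of the dotted line passed the test, with Fasn and Acaca widely separated between the oils and the lowest olive oil value of Srebf1 at -0.12, while Scd and Pnpla3 on the right overlap.

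Among genes of fatty acid uptake, binding and storage, 3 of 17 measured were lower and 0 higher, against 8.49% and 8.42% of all genes, and the list's median was -0.10. Cd36, a transporter that takes up fatty acids, read -0.65, -0.61 and -0.66 against 0.46, 0.82 and 1.08. The corn oil arrays lay close together and far below all olive oil arrays. Both probe sets, of 1 source sequence, gave nearly the same size (-1.496 and -1.36), the gene's difference was -1.43 ± 0.20 (2.69-fold lower, adjusted p = 0.000676), and with the index it was -1.42 ± 0.55. Fabp2, a fatty acid binding protein best known from intestine, overlapped between the groups at 0.014, -0.81 and -0.55 against -0.014, 0.076 and 0.38. Its difference was -0.60 ± 0.17 (adjusted p = 0.0295), and the adjusted p was 0.0907 in the 6 arrays alone, 0.112 without corn oil pool 2, 0.0801 without corn oil pool 3, 0.0652 without olive oil pool 2 and 0.108 without olive oil pool 3. With the index it was -0.76 ± 0.47. Scp2, a sterol carrier protein, had conflicting probe sets, at -1.32 and 0.16, with a gene difference of -0.58 ± 0.14 (adjusted p = 0.0135, and 0.0521 without olive oil pool 1) and -0.34 ± 0.38 with the index.

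Fatty acid oxidation and PPAR alpha targets had 35 measured genes, of which 10 were lower with corn oil and 2 higher, against 8.49% of all genes lower and 8.42% higher. The list's median was -0.28, and it turned to 0.16 with the index as a covariate. The count of lower members was 4 after a second quantile normalization, 5 without corn oil pool 1, 6 without corn oil pool 2, 3 without olive oil pool 2 and 6 without olive oil pool 3. It was 16 with array weights, and 5, with a median of -0.029, when each gene was given by its probe set with the smallest difference. Cpt1a, the carnitine palmitoyltransferase that admits long-chain fatty acids to mitochondria, read -1.40, -0.75 and -1.38 against -0.64, 0.010 and 0.14. The highest corn oil value lay just below the lowest olive oil value. The difference of -1.01 ± 0.25 (adjusted p = 0.0171) was -1.68 ± 0.67 with the index, but the call was lost after the quantile normalization (-0.60, adjusted p = 0.219) and without corn oil pool 1 (0.0680), corn oil pool 3 (0.0547), olive oil pool 2 (0.0669) or olive oil pool 3 (0.0633).

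Pdk4, the pyruvate dehydrogenase kinase that spares glucose when fat is burned, read -0.99, -0.62 and -0.43 against 0.12, 0.10 and 1.04, a difference of -1.11 ± 0.22 (adjusted p = 0.00479, and -0.83 ± 0.60 with the index). Cyp4a1, a fatty acid omega-hydroxylase and a classic PPAR alpha target in rat liver, read -1.46, -1.39 and -1.14 against -0.13, 0.085 and -0.025. All 3 of its probe sets, from 3 source sequences, were below 0 (-1.85 to -0.60), and the gene differed by -1.31 ± 0.21 (adjusted p = 0.00169). With the index this difference was 0.0090 ± 0.42. Hadhb, the beta subunit of the mitochondrial trifunctional protein, behaved alike, with -1.79, -1.78 and -1.59 against -0.10, 0.16 and 0.10, a difference of -1.77 ± 0.33 (adjusted p = 0.00379), and 0.68 ± 0.51 with the index.

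The 2 members that were higher were Etfa, a subunit of the electron transfer flavoprotein, and Cyp4a3, a relative of Cyp4a1. Etfa rose by 0.64 ± 0.11 (adjusted p = 0.00226) with both probe sets of 1 source sequence in step, and by 0.24 ± 0.28 with the index. Cyp4a3 read 0.76, 0.89 and 0.49 against -0.15, -0.34 and -0.36, so that it rose by 1.002 ± 0.24 (adjusted p = 0.0124, and 0.0521 without corn oil pool 2) while Cyp4a1 fell. These genes belong to the same family, and the share of cross-hybridisation in their probe sets was not tested. With the index Cyp4a3 stood at -0.34 ± 0.50. Ppara itself overlapped between the groups and differed by 0.14 ± 0.10 (adjusted p = 0.397).

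Lipoprotein genes moved in both directions, with 2 of 13 measured members higher and 3 lower (8.42% and 8.49% over all genes) and a median of -0.11. Apoa4, an apolipoprotein of triglyceride-rich particles, read -0.012, 0.012 and 0.11 against 0.86, 0.73 and 0.78, 2 tight groups with a difference of -0.76 ± 0.17 (adjusted p = 0.0106, and 0.065 after the quantile normalization). With the index it was -0.55 ± 0.47. Apoa1, the main protein of high density lipoprotein, was lower by both probe sets of 2 source sequences (-0.77 and -0.44), with a gene difference of -0.60 ± 0.15 (adjusted p = 0.0152, and 0.0543 without olive oil pool 3) and -0.54 ± 0.41 with the index. Scarb1, the receptor that takes cholesterol from that lipoprotein, was lower by all 3 probe sets (-1.27 to -0.31), at -0.72 ± 0.13 for the gene (adjusted p = 0.00353) and 0.028 ± 0.29 with the index. Apom, which carries sphingosine-1-phosphate, was higher by 0.66 ± 0.15 (adjusted p = 0.0115), and its sign turned with the index, to -0.31 ± 0.29.

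In cholesterol synthesis and uptake 1 of 14 measured genes passed, as lower, against 8.49% of all genes. This was Msmo1, a methyl sterol oxidase, at -1.22 ± 0.34 (adjusted p = 0.0283), with probe sets at -2.19 and -0.25 that were far apart. Its adjusted p was 0.0870 without corn oil pool 1, 0.0967 without corn oil pool 2, 0.104 without olive oil pool 1, 0.0781 without olive oil pool 3 and 0.172 after the quantile normalization. With the index its difference was -0.0031 ± 0.87, and at 70% fat it was -0.016 (adjusted p = 0.99). Sqle, squalene epoxidase, differed by -0.07 ± 0.38 (adjusted p = 0.917), with olive oil values from -0.93 to 0.59. Bile acid genes gave 3 higher and 1 lower of 15 measured, against 8.42% and 8.49% of all genes, and these 4 calls became 2 with each array centred and without corn oil pool 1, 2 or 3 or olive oil pool 2 or 3. Cyp7b1, the oxysterol 7-alpha-hydroxylase of the alternative bile acid pathway, read 0.49, 0.14 and 0.29 with corn oil and -0.59, -0.87 and -0.68 with olive oil. All corn oil arrays were above all olive oil arrays, the gene rose by 1.02 ± 0.13 (2.03-fold, adjusted p = 0.000462), and the difference was 1.47 ± 0.33 with the index. Cyp7a1, the rate-limiting enzyme of the classic pathway, was higher without overlap and by both probe sets (0.60 and 0.33), with a gene difference of 0.47 ± 0.17 that did not pass (adjusted p = 0.0846).

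In glucose metabolism, 1 of 12 genes of glycolysis and the pentose phosphate pathway was higher and 0 lower. Of 13 genes of gluconeogenesis and glycogen 1 passed in each direction. The calls of that second list were 1 in all without corn oil pool 1 or olive oil pool 2, and 3 without corn oil pool 3. Over all genes 8.42% were higher and 8.49% lower, so such small counts do not set these lists apart. Khk, ketohexokinase, the entry of fructose, rose by 0.55 ± 0.13 (adjusted p = 0.0123, 0.0537 without corn oil pool 1 and 0.0647 after the quantile normalization) and stood at 0.38 ± 0.35 with the index. Pklr, liver pyruvate kinase, overlapped and differed by 0.19 ± 0.25 (adjusted p = 0.659). Pck1, which commits carbon to gluconeogenesis, read -1.92, -0.28 and -0.77 against -0.84, 1.21 and 1.13. Both diets spread widely, and the difference of -1.49 ± 0.49 missed the threshold (adjusted p = 0.0579). It passed without corn oil pool 2 (-1.84, adjusted p = 0.0460) and without olive oil pool 1 (-2.16, adjusted p = 0.0042).

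Agreement between probe sets narrowed the list of genes. Of the 1565 genes with more than 1 probe set, 291 passed the test (18.6%), against 510 of 3171 genes with 1 probe set (16.1%). In 117 of the 291 every probe set separated the oils without overlap in the gene's direction, 56 higher and 61 lower. By this measure 163 of all 1565 genes agreed (10.4%), whether or not they passed. In 223 of the 291 all probe sets had 1 sign, against 49.1% of all 1565 genes, and in 68 the signs were mixed. Probe sets of the same accession share their source sequence, and 57 of the 117 genes agreed over more than 1 source sequence, 25 higher and 32 lower. Every probe set passed the test on its own in 51 of the 291. A gene with 1 probe set cannot be weighed in this way. Besides the lipogenic genes marked above, called genes of this kind include Cpt1a, Pdk4, Hadhb, Cyp4a3, Apoa4, Apom, Cyp7b1, Khk and Fabp2. Among genes named below, they include Ugt2b37, Akr1c13, Plg, Cyp2a1, Rpl22, Col1a2 and Lyve1.

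Agreeing falls came from genes of varied roles. Adh1c, a liver alcohol dehydrogenase, read -2.72, -2.03 and -1.11 against 0.23, 0.085 and 0.28, and its probe sets of 2 source sequences gave -2.87 and -1.43. The gene was 4.44-fold lower (-2.15 ± 0.30, adjusted p = 0.000692), and the difference with the index was -0.52 ± 0.66. Eif4a2, an RNA helicase of translation initiation, read -1.48, -1.05 and -0.92 against 0.68, 0.89 and 0.92. Its difference of -1.98 ± 0.17 (adjusted p = 0.000118) rested on 2 probe sets of 1 source sequence at -2.05 and -1.91, and with the index it was -0.85 ± 0.30. Akr1c14, a hydroxysteroid dehydrogenase, fell by 1.68 ± 0.24 (adjusted p = 0.000848) over 2 source sequences, and Slc16a1, the lactate carrier MCT1, fell by 1.12 ± 0.18 (adjusted p = 0.00164) over 2. Hfe, a regulator of iron uptake, fell by 1.12 ± 0.20 (adjusted p = 0.00254), with probe sets at -1.25 and -0.98. With the index these 3 genes stood at 0.041, -0.021 and -0.0105.

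In other genes that fell, the agreeing probe sets came from 1 source sequence each. Ube2g1, a ubiquitin-conjugating enzyme, differed by -1.59 ± 0.23 (adjusted p = 0.000849), Vdac1, the pore of the outer mitochondrial membrane, by -1.54 ± 0.18 (0.000353), and Serp1, a protein of the endoplasmic reticulum, by -1.26 ± 0.21 (0.0019). Grhpr, which clears glyoxylate, was lower by all 3 probe sets (-1.42 to -1.03), at -1.23 ± 0.15 (adjusted p = 0.00037). Decr2, a peroxisomal reductase for unsaturated fatty acids, read -1.19, -1.19 and -0.89 against 0.22, 0.38 and -0.28, a difference of -1.20 ± 0.27 (adjusted p = 0.011). With the index Grhpr and Vdac1 stayed below 0, at -0.35 and -0.25, while Ube2g1, Serp1 and Decr2 stood at 0.23, 0.40 and 0.44.

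The largest agreeing rise was that of Cyp2c12, a cytochrome P450 known as female-specific in rat liver and set by the pattern of growth hormone. It read 1.67, 1.61 and 1.37 with corn oil and 0.53, -0.48 and -0.93 with olive oil. Corn oil arrays were tight and olive oil arrays spread, with olive oil pool 1 the highest of them. Probe sets of 2 source sequences gave 1.99 and 1.71, and the gene was 3.60-fold higher (1.85 ± 0.44, adjusted p = 0.0135). The adjusted p was 0.0512 without olive oil pool 2 and 0.0532 without olive oil pool 3, and the difference with the index was 1.52 ± 1.22. The rats were male, and centred values cannot show whether Cyp2c12 was detected above background. Cross-hybridisation of its probe sets with other members of its family was not tested. Zfp36l1, an RNA-binding protein that promotes decay of its target messages, read 0.99, 0.89 and 0.97 against -0.32, 0.15 and -0.19. It rose by 1.07 ± 0.21 (adjusted p = 0.00479) over 2 source sequences, and by 1.40 ± 0.57 with the index.

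Ndufa6, a subunit of respiratory complex I, rose by 0.95 ± 0.14 (adjusted p = 0.000816), with 1.13 and 0.78 from 2 source sequences and 0.62 ± 0.37 with the index. Cited2, a transcriptional co-regulator, rose by 0.90 ± 0.15 (adjusted p = 0.00216) with 3 probe sets between 0.32 and 1.38, and stood at 0.95 ± 0.43 with the index. Rpl35, a protein of the large ribosomal subunit, read 0.47, 0.46 and 0.44 against -0.22, -0.23 and -0.13, a rise of 0.65 ± 0.07 (adjusted p = 0.000302) that was 0.60 ± 0.19 with the index. Ssb, an RNA chaperone known as the La protein, rose by 0.85 ± 0.17 (adjusted p = 0.00546) over 3 source sequences, and by 0.19 ± 0.43 with the index. Fdx1, the ferredoxin of mitochondrial cytochromes P450, and Il18, a cytokine, rose by 0.94 ± 0.17 and 0.76 ± 0.17 (adjusted p = 0.00343 and 0.00874), and both stood at -0.13 with the index. Rbm39, a splicing factor, rose by 0.997 ± 0.25 (adjusted p = 0.0176), lost its call without corn oil pool 1 (0.0723), olive oil pool 1 (0.0597) or olive oil pool 2 (0.0578), and stood at -0.54 with the index.

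**Figure D3:**
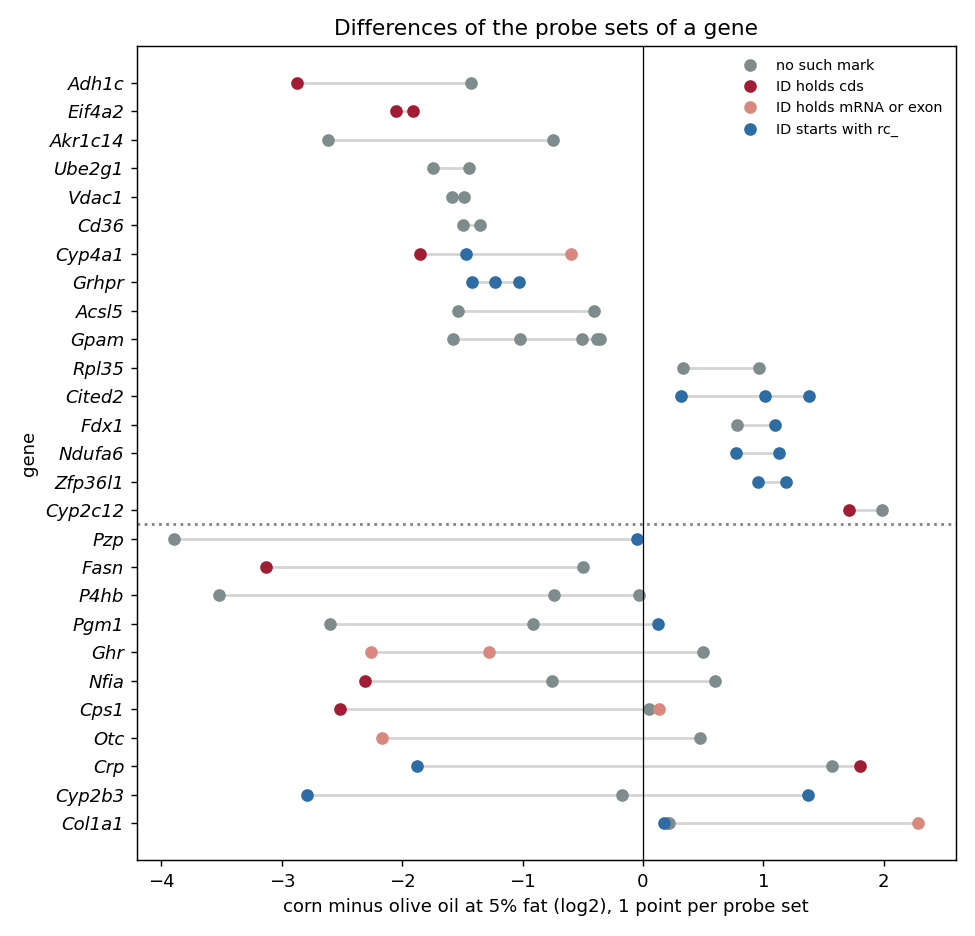
Corn minus olive oil difference (log2) of every probe set of 27 genes, with 1 point per probe set coloured by the mark in its identifier. Above the dotted line the probe sets of a gene lie on 1 side of 0, as for Cd36 (-1.496 and -1.36), and below it are genes whose probe sets lie far apart, as for Pzp (-3.89 and -0.05) and Crp (-1.88 to 1.80).

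Other genes showed large differences on 1 probe set or with probe sets that disagreed. Mug1, an alpha-macroglobulin protease inhibitor secreted by rat liver, had the largest fall of all genes, at -3.46, -3.14 and -2.84 against 0.41, 0.80 and 0.17. It was 12.2-fold lower on 1 probe set (-3.61 ± 0.57, adjusted p = 0.00145) and stood at 0.53 ± 0.91 with the index. Plg, plasminogen, fell by 2.54 ± 0.42 (adjusted p = 0.00178) and stood at -0.032 ± 0.86. Pzp, a related macroglobulin, combined probe sets at -3.89 and -0.05 and stood at -0.29 ± 0.45 with the index. Over 30 measured secreted plasma proteins 6 were lower and 1 higher, against 8.49% and 8.42% of all genes, with a median of -0.26, and the 7 calls became 4 without corn oil pool 1 or olive oil pool 2.

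Amino acid and urea metabolism showed the same mixture, with 8 of 27 measured members lower and 2 higher, against 8.49% and 8.42% of all genes. The median was -0.34, and 0.12 with the index. The count of lower members was 3 without corn oil pool 1, 5 without corn oil pool 2, 4 without olive oil pool 1, 3 without olive oil pool 2 and 2 when each gene was given by its probe set with the smallest difference. On plain probe sets it was 2 of 22, with a median of -0.12, and on rc_ or UTR probe sets alone 1 of 8, with a median of 0.15. Mat1a, which makes S-adenosylmethionine, read -2.30, -1.76 and -1.45 against 0.60, 0.85 and 0.89 on 1 probe set, a 6.11-fold fall (-2.61 ± 0.24, adjusted p = 0.000132) that was -0.81 ± 0.34 with the index. The urea cycle enzymes rested on single probe sets. Cps1, carbamoyl phosphate synthetase, gave -2.52 on the probe set marked as coding sequence and 0.052 and 0.14 on the other 2, and Otc, ornithine transcarbamylase, gave -2.17 and 0.48. The gene differences, -0.78 ± 0.13 for Cps1 (adjusted p = 0.0021) and -0.85 ± 0.22 for Otc (0.0186), are averages of such opposed values, and they stood at 0.032 ± 0.26 and 0.26 ± 0.49 with the index. The call of Otc was lost without corn oil pool 1 (0.0618), corn oil pool 2 (0.0629), olive oil pool 1 (0.0771) or olive oil pool 2 (0.0702) and after the quantile normalization (0.0704).

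Cytochromes of drug and steroid metabolism changed in both directions, with 4 of 27 measured members higher and 4 lower, where 8.42% of all genes were higher and 8.49% lower. Cyp2c7 read -2.70, -2.25 and -1.30 against 0.19, 0.43 and 0.40, a 5.36-fold fall on 1 probe set (-2.42 ± 0.28, adjusted p = 0.000363) that was -0.58 ± 0.53 with the index. Cyp2c11, the male-specific cytochrome of rat liver, fell by 1.27 ± 0.34 (adjusted p = 0.0244) while its probe sets ran from -2.36 to -0.064. The adjusted p of Cyp2c11 was 0.0639 without corn oil pool 1, 0.0862 without corn oil pool 2, 0.0884 without olive oil pool 1 and 0.0680 without olive oil pool 2, and with the index it turned to 1.07 ± 0.60. Cyp2a1 fell by 1.08 ± 0.15 (adjusted p = 0.000676) and stood at -0.37 ± 0.35 with the index. The probe sets of this family can share sequence between members, and cross-hybridisation was not tested. Cyp2e1, the ethanol-inducible cytochrome, overlapped and differed by -0.48 ± 0.25 (adjusted p = 0.223).

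Of 27 measured genes of phase II conjugation, 2 were higher and 1 lower, against the 8.42% and 8.49% of all genes, with 5 calls without olive oil pool 3. Ugt2b37, a glucuronosyltransferase, read 0.69, 0.90 and 0.60 against -0.59, -0.42 and -0.93. It rose 2.60-fold (1.38 ± 0.22, adjusted p = 0.00135), and the difference was larger with the index, at 2.16 ± 0.55. Akr1c13, an aldo-keto reductase, rose by 1.49 ± 0.32 (adjusted p = 0.00746, and 0.72 ± 0.85 with the index). Antioxidant genes and NRF2 targets gave 5 lower and 1 higher of 20 measured, against 8.49% and 8.42% of all genes. Gclc, the catalytic subunit that limits glutathione synthesis, read -1.43, -1.33 and -1.09 against 1.22, 1.26 and 0.0052. Olive oil pool 3 lay well below its companions, and the gene fell by 2.11 ± 0.35 (adjusted p = 0.00173) on 1 probe set. Gsr, glutathione reductase, was lower by all 3 probe sets (-1.33 to -0.53), at -0.85 ± 0.15 (adjusted p = 0.00242). With the index Gclc stood at -0.30 ± 0.78 and Gsr at 0.149 ± 0.26.

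In the growth hormone and IGF axis 2 of 15 measured members were higher and 2 lower (8.42% and 8.49% over all genes), and 2 calls were left without corn oil pool 1 or 2 or any 1 of the olive oil pools. Ghr, the growth hormone receptor, averaged -1.01 ± 0.14 (adjusted p = 0.000797) from probe sets at -2.26, -1.28 and 0.50, and was -0.19 ± 0.31 with the index. Igfbp3, which carries IGF-1 in blood, read 0.43, 0.15 and 0.36 against -0.059, -0.60 and -1.20. It rose by 0.93 ± 0.22 (adjusted p = 0.0141, and 0.0524 without corn oil pool 1) with probe sets of 2 source sequences at 1.21 and 0.66, and by 0.62 ± 0.62 with the index. Igf1 had 5 probe sets between -0.84 and 0.36 and a gene difference of -0.03 ± 0.13 (adjusted p = 0.908).

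Of 37 measured cytosolic ribosomal proteins, 12 were higher and 3 lower, against 8.42% and 8.49% of all genes. The median of 0.16 compares with 0.050 over all genes, and it was 0.17 with the index and 0.16 at 70% fat. The count of higher members was 9 with each array centred and after the second quantile normalization, 6 without corn oil pool 2, 6 without olive oil pool 2, 8 without corn oil pool 1 and 8 without olive oil pool 1. Rpl22 read 0.40, 0.59 and 0.46 against -0.092, -0.18 and -0.18 and rose by 0.63 ± 0.11 (adjusted p = 0.00254), with 1.15 ± 0.26 with the index. Oxidative phosphorylation gave 6 higher and 3 lower of 27, with a median of 0.035.

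The remaining lists held calls in both directions or few calls, and their counts stand against 8.42% of all genes higher and 8.49% lower. Among 25 measured lipid-sensing and hepatocyte transcription factors 4 were higher and 4 lower, and the 8 calls became 4, 5 and 8 without corn oil pools 1 to 3 in turn and 5, 3 and 4 without olive oil pools 1 to 3 in turn. Proteasome and ubiquitin genes gave 5 higher and 4 lower of 19, and chaperones of the endoplasmic reticulum 1 and 3 of 15. Cytoskeletal and housekeeping genes gave 4 higher and 5 lower of 16, against 16.9% of all genes called. Cell cycle genes gave 4 higher and 1 lower of 18 (3 calls without corn oil pool 1), heat shock genes 1 and 1 of 11 (1 call without corn oil pool 1, olive oil pool 2 or olive oil pool 3), and thyroid hormone targets 2 higher of 7 (1 call without corn oil pool 2, corn oil pool 3 or olive oil pool 3). Immediate early genes gave 1 higher of 15, the clock genes 1 lower of 10 and the interferon response 1 higher of 15. Of these 3 single calls, the first was lost without corn oil pool 2 or olive oil pool 3, and the second without corn oil pool 1, corn oil pool 3, olive oil pool 2 or olive oil pool 3.

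Immune genes gave small counts. Of 19 measured genes of inflammation 5 were higher and 0 lower, against 8.42% and 8.49% of all genes, with a median of 0.18, but 1 was called after the second quantile normalization. Without corn oil pools 1 to 3 in turn 3, 2 and 3 were called, and without olive oil pools 1 to 3 in turn 3, 1 and 2. RT1-Db1, an MHC class II chain, rose by 0.85 ± 0.20 (adjusted p = 0.0129, and 0.0505, 0.0552 and 0.0504 without corn oil pool 1, olive oil pool 2 and olive oil pool 3, and 0.50 ± 0.54 with the index), and was the only one of 8 measured class II genes past the test. Tnf, tumour necrosis factor, overlapped and differed by -0.01 ± 0.11 (adjusted p = 0.985).

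The liver was measured as bulk tissue, in which fewer cells of a type and less RNA per cell cannot be told apart. Of 11 measured hepatocyte markers 4 were lower and 0 higher, against 8.49% and 8.42% of all genes, with a median of -0.31 that was -0.046 with the index, and 2 were called without corn oil pool 1, olive oil pool 2 or olive oil pool 3. Their summed centred values cannot be read as levels, since no absolute level is known. Hnf4a, which sets hepatocyte identity, was lower by 3 probe sets (-0.63 to -0.34), at -0.44 ± 0.11 (adjusted p = 0.0169), and was lost without corn oil pool 1 (0.0716), olive oil pool 2 (0.0723) or olive oil pool 3 (0.0541), with 0.22 ± 0.22 with the index. Of 12 measured stellate cell or fibroblast markers 5 were higher, against 8.42% of all genes, and 0 lower, with a median of 0.28 that was 0.073 with the index. The higher members include a gene that is also on the cholangiocyte list and counts there as well. Leaving out any 1 of the 6 arrays gave 5 calls as well, but the count was 2 of 12 with the probe set of the smallest difference, 1 of 7 on plain probe sets, 2 of 6 on rc_ or UTR probe sets alone and 0 with the index (limma). The mean over these 12 genes was 0.19, 0.23 and 0.051 in corn oil pools 1 to 3 and -0.19, -0.069 and -0.22 in olive oil pools 1 to 3.

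The matrix genes among them rested on unequal probe sets. Col1a1, a chain of type I collagen, gave 2.29 on 1 probe set and 0.18 to 0.22 on the other 3, and the gene's difference was 0.72 ± 0.13 (adjusted p = 0.00323, and 0.17 ± 0.32 with the index). Col1a2, its partner chain, read 0.58, 0.39 and 0.35 against -0.24, -0.32 and -0.49, a rise of 0.80 ± 0.13 (adjusted p = 0.002) that stood at -0.090 ± 0.24 with the index. Dcn, the proteoglycan decorin, rose by 0.70 ± 0.13 (adjusted p = 0.00395) with probe sets from 0.019 to 1.18, and stood at 0.21 ± 0.33 with the index. Of 9 measured Kupffer cell markers 3 were lower, against 8.49% of all genes, and 0 higher. Their median was -0.38, and -0.13 with the index, while at 70% fat it was 0.36 with 2 higher and 0 lower. Without corn oil pool 1, corn oil pool 2 or olive oil pool 1 their calls were 0, without olive oil pool 3 there was 1. Of the remaining marker lists, also set against 8.42% of all genes higher and 8.49% lower, endothelial cells gave 2 higher and 1 lower of 5 (1 call without corn oil pool 1 or olive oil pool 2), with Lyve1 at 0.89 ± 0.20 (adjusted p = 0.00874, and 0.50 ± 0.53 with the index), cholangiocytes 2 and 1 of 4, lymphocytes 1 higher of 12, adipocytes 1 higher of 6, pancreas 1 lower of 10, and neutrophils and erythroid cells 0 of 4 and 0 of 5 (limma; leaving out any 1 array at 5% fat gave 0 as well). The single calls of lymphocytes, adipocytes and pancreas were lost without corn oil pool 2, and that of adipocytes also without corn oil pool 1, olive oil pool 2 or olive oil pool 3, that of pancreas also without olive oil pool 1 or 2. The part of changed cell numbers in the results was not tested.

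Differences varied with the kind of sequence a probe set was made from. Identifiers that hold cds, mRNA, exon or UTR name the source, and those that start with rc_ stand for expressed sequence tags. The 638 cds probe sets had a median difference of -0.012, with 6.43% higher and 19.7% lower past the test. The 3417 rc_ probe sets had a median of 0.083, with 13.2% higher and 6.15% lower, and the 76 UTR probe sets one of 0.17, with 21.1% higher and 1.32% lower. In 83 genes with both kinds, the mean of rc_ or UTR probe sets minus that of cds probe sets had a median of 0.35 and was above 0 in 69. The signs were opposite in 42 of the 83.

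**Figure D4:**
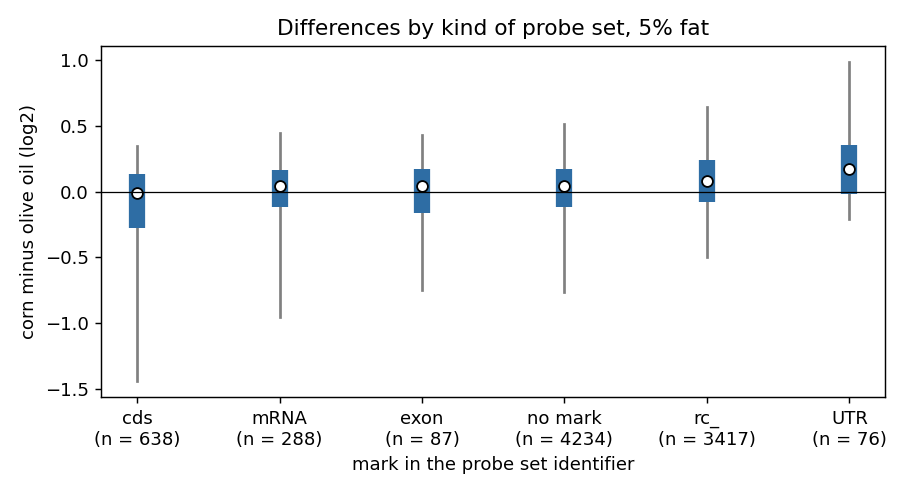
Corn minus olive oil differences (log2) by the mark in the probe set identifier, with a circle for the median, a bar from the first to the third quartile and a line that leaves out the outer 5% on each side. The line of the cds probe sets reaches down to -1.44 and that of the UTR probe sets up to 0.99.

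The actins, different genes with 1 probe set each among those tested, had opposite signs. The actin controls described above are probe sets of beta actin too, and they were left out of the test. Their 5' and middle values were lower in every corn oil array than in any olive oil array, and their 3' values overlapped. None of them shows the rise of the tested beta actin probe set. Actg1, gamma actin, fell by 1.72 ± 0.32 (adjusted p = 0.00327) and stood at 0.64 ± 0.46 with the index, whereas Actb, beta actin, rose by 0.38 ± 0.10 (adjusted p = 0.0221, and 0.0529, 0.0724, 0.0775 and 0.0820 without corn oil pools 2 and 3 and olive oil pools 2 and 3, and 0.0632 after the quantile normalization) and stood at 0.084 ± 0.26. Both were chosen after their values were seen, as were Acacb, Slc25a1, Cyp2c11 and Cyp4a3. Further genes with opposed probe sets were Crp, C-reactive protein, at 1.80, 1.57 and -1.88, and Cyp2b3 at 1.37, -0.17 and -2.79. Opposed as well were Nfia, a transcription factor, at 0.60, -0.76 and -2.31, and Pgm1, phosphoglucomutase, at 0.13, -0.92 and -2.60. P4hb, protein disulphide isomerase, had probe sets of 1 sign that lay far apart, at -0.035, -0.74 and -3.52. Crp and Cyp2b3 did not pass the test as genes. Nfia, Pgm1 and P4hb did, at -0.83, -1.13 and -1.43 (adjusted p = 0.0155, 0.000605 and 0.000654). With the index they stood at 0.29, -0.10 and 0.0031. Nfia lost its call without corn oil pool 1 (0.0624), corn oil pool 2 (0.0538) or olive oil pool 2 (0.0568).

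With the index as a covariate, 223 of the 801 genes past the test changed sign, and over the 801 the median ratio of the difference with the index to that without it was 0.317. Of the genes named above that passed the test, those that kept at least their size were Acaca, Acsl5, Cpt1a, Fabp2, Cyp7b1, Ugt2b37, Zfp36l1, Cited2 and Rpl22, with Cd36 and Gpam just under theirs. For none of these was the adjusted p with the index under 0.7, the lowest of all genes.

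**Figure D5:**
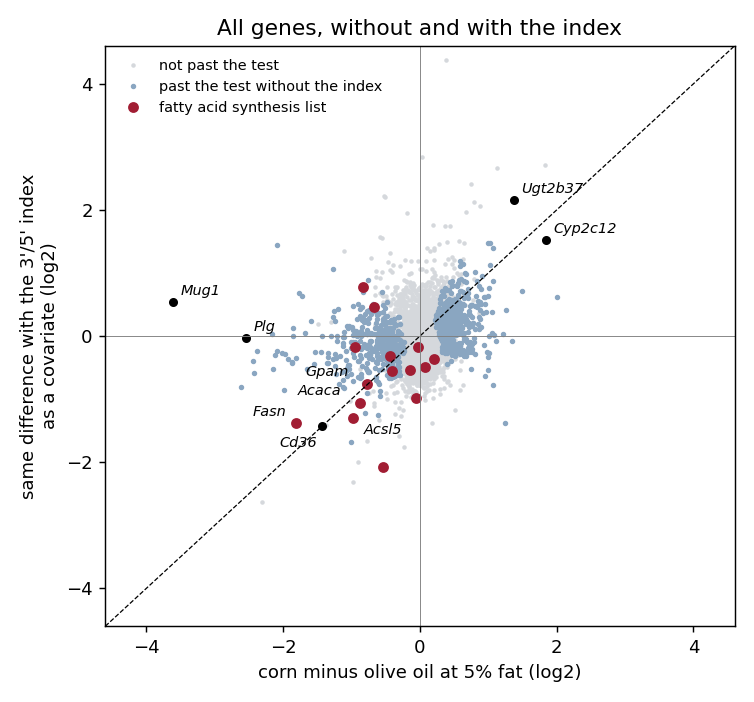
Corn minus olive oil difference (log2) of each of 4736 genes without the index (horizontal) and after adjusting for that index (vertical), where the dashed line marks equal values. Cd36 lies on the line at -1.43 and -1.42 and Acsl5 below it at -0.97 and -1.30, while Mug1 moves from -3.61 to 0.53 and Plg from -2.54 to -0.03.

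At 70% fat the same contrast of oils called 328 genes (6.93%), on arrays that are not shared with those at 5% fat. Their index was 0.948, 0.162 and 1.03 with corn oil and -0.228, -0.414 and -0.394 with olive oil, so that it separated the oils there as well. Of the genes called at 5% fat, 235 were also called at 70% in the same direction and 0 in the opposite direction. The 235 are 29.3% of the calls at 5% and 71.6% of those at 70%. Both contrasts come from 1 fit that shares a variance per gene, so the calls at both levels are not independent. Among the lipogenic genes, Acaca differed by -0.43 (adjusted p = 0.0077), Fasn by -0.99 (0.03) and Acsl5 by -0.80 (0.0093) at 70% fat. Gpam at -0.34 (adjusted p = 0.058), Acacb at -0.29 (0.14), Srebf1 at -0.87 (0.0515) and Slc25a1 at -0.49 (0.27) did not pass there, and 5 of the 15 members of the list passed as lower with 0 higher. Cd36 and Apoa4 gave similar values at both levels, with -1.25 (0.0075) and -0.89 (0.012) at 70%.

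Other genes were called at 1 fat level alone. Cyp7b1 differed by -0.06 at 70% fat (adjusted p = 0.86), Ugt2b37 by -0.18 (0.71) and Cpt1a by -0.15 (0.81). Scd was the opposite case, with -2.96 at 70% fat (adjusted p = 0.0019) and -0.06 at 5%. The difference between the oil effects at both fat levels passed the test for none of the 4736 genes (limma, lowest adjusted p = 0.168, 565 genes at an unadjusted p under 0.05, which is 11.9%). It was 2.90 for Scd (0.17), 1.08 for Cyp7b1 (0.17) and 1.56 for Ugt2b37 (0.20), so that a difference between fat levels was not shown for these genes.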

How the data were processed

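The table the authors deposited holds log2 values of 8799 probe sets on 12 single-colour Affymetrix rat arrays. GCOS and RMA are named in the submitters' processing notes, without versions. The base of the logarithm is not stated and was taken as 2, as RMA gives. Over the 12 arrays 100% of probe sets had a median of 0 (tolerance 1e-06), so the deposited values are centred, a low-signal filter was not possible, and signal over background cannot be judged. There were 0 columns of other samples. After 59 controls were left out, 8740 probe sets were tested. The platform annotation gave 1 symbol to 7006 of them, several to 308 (no gene named) and none to 1426 here. Through gene identifiers, 6985 symbols were taken from the GRCr8 annotation and 21 were kept.

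A gene's value was the mean of its probe sets. Tests used limma 3.58.1 in R 4.3.3 with 1 mean per diet over all 12 arrays, moderated variances and a two-sided contrast of corn minus olive oil at 5% fat. P-values were adjusted by Benjamini-Hochberg over 4736 genes (or 8740 probe sets), with a threshold of 0.05. The code was tested on simulated data. The closest pair of the 6 arrays differed by 0.195 log2 (root mean square), so none was a duplicate.

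The members, gene lists, naming rule and the index were chosen with earlier results of these data known. Named genes were up to 12 rises and 12 falls with agreeing probe sets, up to 8 of each on 1 probe set, up to 4 called members per list (2 by smallest p where none passed), the 5 called and 5 of all genes with the widest probe sets, and a set always looked up. The text names a part of these, and says where a gene falls outside the rule. Alternatives were array centring, a second quantile normalization, the index as a covariate, array weights, robust moderation, the pool number as a block, other summaries of a gene, the 6 arrays alone, leaving out each array and a minimum of 1.5-fold.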

Additional observations from a re-analysis of the deposited data

How the results depend on the processing

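The count of 801 genes was 1315 with array weights (744 higher, 571 lower), 0 with the index as a covariate, 510 with the probe set of the smallest difference per gene, 342 with a 1.5-fold minimum and, chosen after seeing the data, 358 with rc_ or UTR probe sets alone (237 higher, 121 lower, from fewer genes). For the 1704 probe sets these counts were 2632, 0, 886 with the fold minimum, 1020 for plain probe sets (fewer tested) and 660. For the 117 agreeing genes they were 0 with the index, 66 with the fold minimum, 223 by sign alone, 51 with every probe set past the test and, chosen after seeing the data, 57 over more than 1 source sequence. Leaving out each array gave 465 to 1011 genes, 1115 to 2065 probe sets, 97 to 139 agreeing genes, an index difference of 1.53 to 1.79, and 0 to 2 named genes for the difference between fat levels (2 without corn oil pool 3 at 5% fat, 1 without corn oil pool 1 at 70% fat). Beside the fold minimum and smaller tests, the cause of these moves was not tested.

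With the index as a covariate 23 of the 71 called genes of the text changed sign and 48 kept it without passing. Those that turned were Slc25a1 (0.78), Cyp4a1 (0.0090), Cyp4a3 (-0.34), Hadhb (0.68), Scarb1 (0.028), Apom (-0.31), Akr1c14 (0.041), Ube2g1 (0.23), Serp1 (0.40), Decr2 (0.44), Rbm39 (-0.54), Fdx1 (-0.13), Il18 (-0.13), Mug1 (0.53), Cyp2c11 (1.07), Gsr (0.149), P4hb (0.0031), Cps1 (0.032), Otc (0.26), Nfia (0.29), Actg1 (0.64), Col1a2 (-0.090) and Hnf4a (0.22). With plain probe sets Scp2 (0.16) and Otc (0.48) turned. With the probe set of the smallest difference Scp2 (0.16), Ghr (0.50), Cps1 (0.052), Otc (0.48), Nfia (0.60) and Pgm1 (0.13) turned. With rc_ or UTR probe sets alone Pgm1 (0.13) turned. Crp, which was not called as a gene, changed sign to -1.88 with plain probe sets and with rc_ or UTR probe sets alone.

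The pool numbers did not pair the arrays: deviations from the group means of same-numbered corn and olive oil arrays correlated at 0.11, -0.038 and -0.081. With the pool number as a replicate block the counts were 792 genes, 1625 probe sets and 118 agreeing genes, with 0 named genes for the difference between fat levels. Of the 71 genes, 71 kept their call with each array centred or with robust moderation, 70 under the block or with array weights, 69 with the median of the probe sets, 68 in the 6 arrays alone, 64 after the second quantile normalization or with the fold minimum and 45 with the probe set of the smallest difference. Without corn oil pools 1 to 3 in turn 58, 59 and 68 kept it, and without olive oil pools 1 to 3 in turn 61, 58 and 61. On plain probe sets 46 of 53 kept it and on rc_ or UTR probe sets alone 17 of 24. The number of arrays limits the precision, and the planned choice by signal could not be applied to centred values.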
